A study of Danio rerio with 6 samples.

Results

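The vessel and lymphatic markers described here are 10 zebrafish genes chosen by name: plvapb, aqp1a.1, egfl7, flt4, kdrl, kdr, pecam1, tie1, lyve1b and etv2. Probes were assigned to them through the RefSeq accession that the scanner files give for each spot. This gave 14 of the 43603 probes on the array, which read 7 of the 10 genes. No probe was matched by accession for pecam1, tie1 and lyve1b, and these 3 genes were not analysed here. The RefSeq table lists pecam1 as pecam1a and etv2 as etsrp. Of the 7 genes with probes, 5 passed the filter on dim probes and were tested, and kdrl and kdr did not.

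The study compared caudal fins of swim-trained wildtype zebrafish larvae with those of untrained controls. Both groups were sampled at 10 days post fertilisation, and the trained larvae had swum in 3 h sessions each day between day 5 and day 10. The trained pools were T2 and T3 and the control pools C2 and C3, and RNA of each pool came from the fins of 15 fish, so no value belongs to a single larva. T2 was hybridised against C2 on 4 arrays (both dye orientations, each with a technical repeat) and T3 against C3 on 2 arrays, so the arrays of a pool pair share their RNA and the pool pair is the replicate.

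Endothelial cells line blood and lymphatic vessels, and their growth is driven by vascular endothelial growth factors (VEGF) that bind receptor tyrosine kinases on the cell surface. The receptors kdrl, kdr and flt4 are the zebrafish VEGF receptors of this class that were chosen here, with flt4 best known for its part in venous and lymphatic sprouting. The ETS factor etv2 acts at the start of endothelial fate. The larval fin fold is supplied by vessels at its base and is otherwise mostly epidermis, mesenchyme and collagenous actinotrichia, so vessel transcripts are a small part of such an RNA pool.

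In each of the 5 tested vessel markers, the trained pool lay below the control pool hybridised with it, in both pool pairs and on all 6 arrays. The mean log2 ratios of trained over control ran from -0.81 for plvapb to -0.18 for etv2, with a median of -0.47, against a median of 0.04 over the 15781 genes tested. None of the 5 passed limma's test on the 2 pool pairs after Benjamini-Hochberg adjustment over all genes, and 0% of all genes did (lowest adjusted p = 0.752). At an unadjusted limma p under 0.05, plvapb and aqp1a.1 were lower, 2 of the 5, where 1.82% of all tested genes were lower and 3.99% passed in either direction. A log2 ratio below 0 in both pool pairs was found for 24.7% of all tested genes, and one below 0 on all 6 arrays for 8.37%. Because the genes were picked with results of these data already known, these shares are given as a background and no test of the group was made.

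Across the arrays, between 54.2% and 81.1% of spots were well above background in a channel, and 0 spots were saturated. The SD of log2 ratios across tested genes was 0.15 in pool pair 2 and 0.53 in pool pair 3. The 6 arrays lay on 2 slides, each holding arrays of both pool pairs. As a check of the tissue, 20 of 21 listed fin fold genes, with the actinotrichia genes and1 and and2, and 21 of 26 epidermal genes passed the filter in these pools. The listed genes that did not pass had no probe. Over the whole array 15781 genes were tested with the filter and 28374 without it. Passing thus shows that these transcripts were read and does not identify the tissue.

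**Figure D1:**
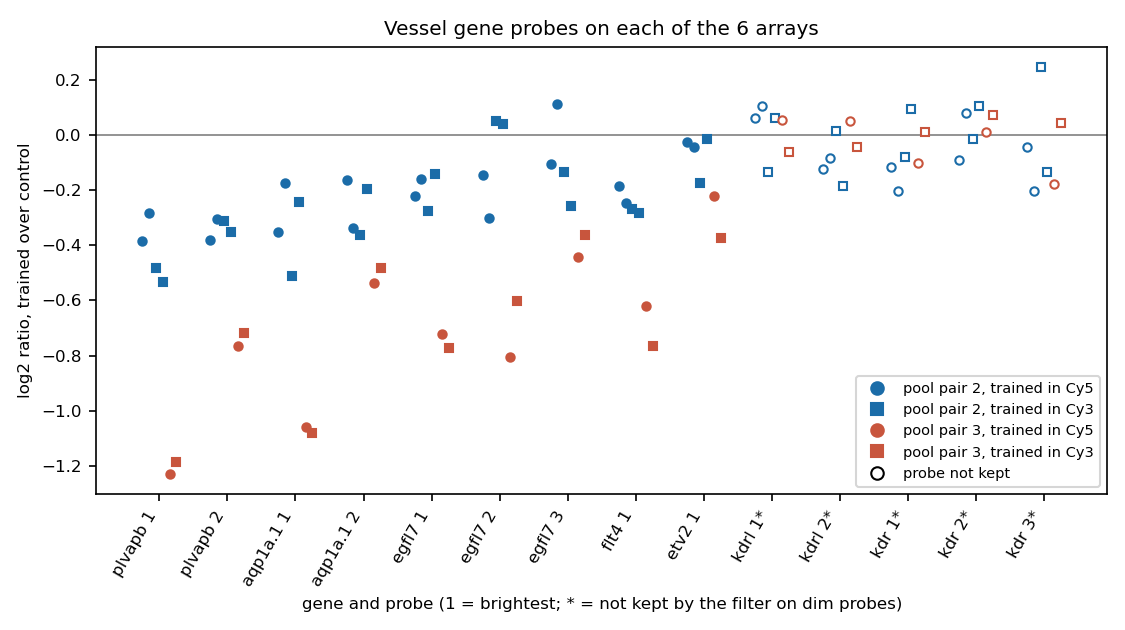
Log2 ratio of trained over control (vertical axis) for each of the 14 probes (horizontal axis, brightest probe of a gene numbered 1), with a point for each of the 6 arrays, coloured by pool pair and shaped by dye. The kept probes of plvapb, aqp1a.1, flt4 and etv2 lie below 0 on all arrays, those of pool pair 3 lowest, and the open symbols of kdrl and kdr scatter on both sides of 0.

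The plvapb gene encodes the plasmalemma vesicle associated protein that forms the diaphragms of endothelial fenestrae and caveolae. Its brightest probe had log2 ratios of -0.38, -0.28, -0.48 and -0.53 on the arrays of T2 over C2 and of -1.23 and -1.19 on those of T3 over C3. All 6 values lay below 0, and the values of pair 3 lay below every value of pair 2. The mean over the pairs was -0.81 ± 0.24 (moderated SE, n = 2 pool pairs), a level 1.76-fold lower in trained fins (limma unadjusted p = 0.0185, adjusted p = 0.752). By pair, plvapb was 1.34-fold lower in T2 than in C2 and 2.31-fold lower in T3 than in C3. Its second probe read -0.34 for pair 2 and -0.74 for pair 3, in the same direction and 0.27 closer to 0 in the mean. Ordered from the lowest log2 ratio, plvapb stood at percentile 0.811 of the tested genes in pair 2 and at percentile 0.843 in pair 3.

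The aqp1a.1 gene encodes a water channel of the aquaporin 1 type, found in zebrafish endothelium and in red blood cells. Its brightest probe had log2 ratios of -0.35, -0.17, -0.51 and -0.24 in pair 2 and of -1.06 and -1.08 in pair 3. As for plvapb, the arrays of both pairs lay below 0 and did not overlap between the pairs. The mean was -0.70 ± 0.23 (moderated SE, n = 2 pool pairs), or 1.62-fold lower in trained fins (limma unadjusted p = 0.0300, adjusted p = 0.752). The second probe read -0.26 for pair 2 and -0.51 for pair 3, but was well above background on 1 of 6 arrays in the trained channel and on 6 of 6 in the control channel. The gene stood at percentile 1.83 of the log2 ratios in pair 2 and at percentile 1.42 in pair 3.

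Because aqp1a.1 is also made by red blood cells, the list of red blood cell genes is given beside it. Of 26 listed genes 20 had a probe and 11 were tested, and their median log2 ratio was 0.03 for pair 2 and 0.01 for pair 3. In the mean 5 of the 11 lay below 0, and 1 lay below 0 in both pairs (42.8% and 24.7% of all tested genes). The defining red cell regulators gata1a and klf1 were not kept by the filter, nor were hbaa2, hbba1 and slc4a1a. The list was not uniform in pair 3. There the embryonic alpha globin gene hbae1.1 was at -2.31, hbae3 at -0.78 and the globin gene hbbe2 at -0.39. Among those above 0 in pair 3 were hmbsa at 0.85 and sptb at 0.49. In pair 2 these genes were at 0.06, 0.14, 0.16, -0.05 and -0.02. Above 0 in both pairs were 4 of the 11 (36.4%, against 36.6% of all tested genes). The pair 3 median was the value of hbbe3, a dim gene with log2 intensities of 6.37 to 6.47. The part of blood content in the value of aqp1a.1 was not tested. In pooled fin RNA, fewer vessel cells and less RNA per vessel cell cannot be told apart for any gene described here.

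Of the 3 VEGF receptor genes chosen here, flt4 was the only one kept by the filter. It had log2 ratios of -0.18, -0.24, -0.27 and -0.28 in pair 2 and of -0.62 and -0.77 in pair 3. The 4 arrays of pair 2 were the closest together of the 5 tested genes (SD = 0.04, technical). The mean was -0.47 ± 0.19 (moderated SE, n = 2 pool pairs), a level 1.38-fold lower in trained fins that did not pass (limma unadjusted p = 0.0576, adjusted p = 0.752). By pair it was 1.19-fold lower in T2 than in C2 and 1.62-fold lower in T3 than in C3. A single probe read flt4, so no second probe bears on it.

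The main blood vessel receptor gene kdrl and its paralogue kdr, both of the VEGFR2 type, were read by 2 and 3 probes. None of these 5 probes was well above background on more than 3 of 6 arrays in either channel. The brightest kdrl probe had raw green signals of 29 to 50 against local backgrounds of 17 to 26.5, and the brightest kdr probe 30.5 to 53 against 16.5 to 28.5. The signals therefore stood close to background in both groups. The 2 kdrl probes gave mean log2 ratios of 0.01 and -0.04, and the 3 kdr probes -0.06, 0.03 and -0.05. Arrays of one pair fell on both sides of 0 for these probes, and with an offset of 50 added to dim signals their ratios are drawn towards 0. A change of either receptor was not detectable at this signal.

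The egfl7 gene encodes a secreted protein of endothelial cells that takes part in vessel tube formation. Its brightest probe had log2 ratios of -0.22, -0.16, -0.27 and -0.14 in pair 2 and of -0.72 and -0.77 in pair 3. The mean was -0.47 ± 0.20 (moderated SE, n = 2 pool pairs), or 1.39-fold lower in trained fins (limma unadjusted p = 0.0675, adjusted p = 0.752). It was read by 3 kept probes, more than any other gene of the group. The second probe had -0.09 in pair 2, with 2 arrays above 0, and -0.70 in pair 3. The third was well above background on 5 of 6 arrays in the trained channel and on 6 of 6 in the control channel. It had -0.09 in pair 2, with 1 array above 0, and -0.40 in pair 3. The probes thus had the same sign in both pairs and differed in size, from -0.47 to -0.25 in the mean.

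The transcription factor gene etv2 had log2 ratios of -0.02, -0.04, -0.17 and -0.01 in pair 2 and of -0.22 and -0.37 in pair 3. With the offset of 50 it was the smallest difference of the 5, at -0.18 ± 0.17 (moderated SE, n = 2 pool pairs, limma unadjusted p = 0.344, adjusted p = 0.801). The mean was close to its own error, and etv2 stood at percentile 24.1 in pair 2 and at percentile 19.9 in pair 3. Its raw green signals were 40 to 83 against local backgrounds of 19.5 to 29, so the offset draws its ratio towards 0 too. Over the settings run its log2 ratio went from -0.56 to -0.06, and that of aqp1a.1 from -1.57 to -0.32. Over all 9 kept probes of the 5 genes, 9 had a mean log2 ratio below 0 in both pairs, as did 28.8% of the 24108 kept probes. The second aqp1a.1 probe and the third egfl7 probe were kept through the control channel alone. For such probes the filter itself favours a ratio below 0, so this count is no test. The tested probe of each of the 5 genes was well above background on all 6 arrays in both channels.

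To see each pool by itself, the levels of the separate channels were scaled between arrays. On that scale plvapb had a log2 intensity of 7.87 in T2 and 7.14 in T3, against 8.29 in C2 and 8.35 in C3. For aqp1a.1 the log2 intensities were 7.01 in T2 and 6.56 in T3, against 7.33 in C2 and 7.63 in C3. The control pools lay 0.06 apart for plvapb and 0.30 for aqp1a.1, while T3 lay below T2 by 0.73 and 0.45. These distances between pools of different pairs hold for the scaled values only.

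For egfl7 the log2 intensities were 7.78 in T2 and 7.56 in T3, against 7.98 in C2 and 8.31 in C3. For flt4 they were 7.09 in T2 and 6.83 in T3, against 7.33 in C2 and 7.52 in C3. For etv2 they were 6.67 in T2 and 6.59 in T3, against 6.73 in C2 and 6.89 in C3. In all 5 genes both trained pools lay below both control pools, which 13.9% of all tested genes did, and T3 was lowest and C3 highest, as for 29.2% and 28.3% of all tested genes. That order of 4 pools depends on the scaling. Without it C2 and not C3 was the highest pool in each of the 5 genes, and in etv2 T2 at 6.77 lay above C3 at 6.69, so that 4 of 5 kept both trained pools below both control pools. Trained stayed below control within each pair for all 5, since both pools of a pair were measured on the same arrays.

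**Figure D2:**
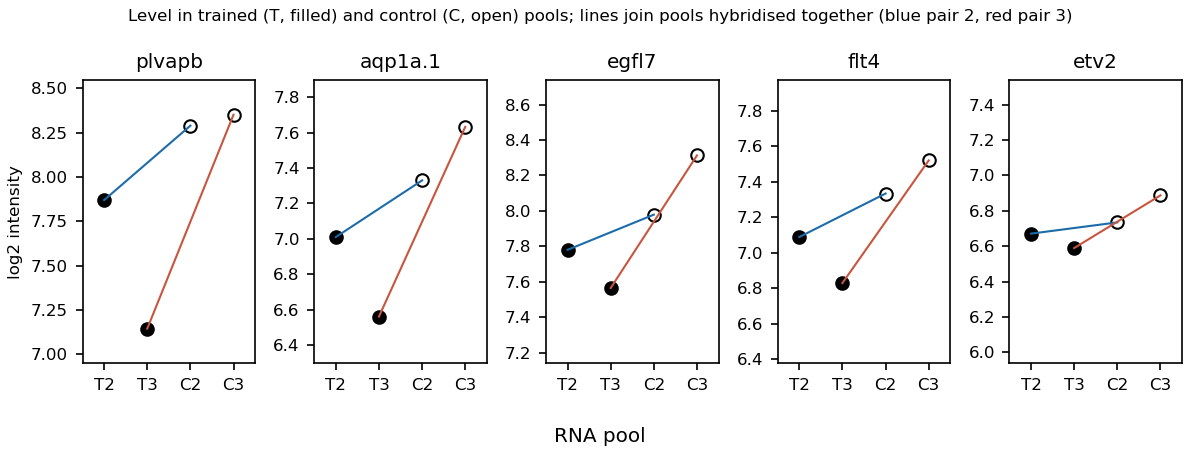
Log2 intensity scaled between arrays (vertical axis) in the trained pools T2 and T3 (filled) and the control pools C2 and C3 (open) for the brightest probe of each tested gene, with lines joining the pools hybridised together. Each panel spans the same range of log2 units, and the filled points lie below the open ones in every panel.

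The size of the difference was set against the spread of hybridisations in a fit of all 6 arrays with a dye term. That fit was added after the data had been seen, and it compares the pools at hand and not training in general. Pair 3 had 1 array in each dye orientation and no technical repeat, so its own spread between repeat hybridisations was not measured. The errors given for pair 3, and for its difference from pair 2, rest largely on the repeats of pair 2. In pair 2 the trained pool was lower for 4 of the 5 genes at a limma adjusted p under 0.05, as for 13% of all tested genes. The values were -0.42 ± 0.04 for plvapb (adjusted p = 1.87e-05), -0.32 ± 0.05 for aqp1a.1, -0.25 ± 0.04 for flt4 and -0.20 ± 0.04 for egfl7. For etv2 the value in pair 2 was -0.06 ± 0.04 (limma adjusted p = 0.269). In pair 3 all 5 were lower, where 30.7% of all tested genes were, with limma adjusted p from 2.14e-09 for plvapb to 5.63e-04 for etv2.

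All 5 genes also lay lower in pair 3 than in pair 2 beyond the hybridisation spread, by -0.79 ± 0.07 for plvapb to -0.23 ± 0.07 for etv2. This held for 29.5% of all tested genes, and the ratio of the pair values ran from 2.82 for flt4 to 4.69 for etv2. The pairs differed in size, while the rank of each gene among all genes was alike in both. The genes plvapb, aqp1a.1, flt4 and egfl7 lay within the lowest 5.71% of log2 ratios in both pairs. That cut is the percentile of egfl7 in pair 2, so it was set by the values of these genes. The share of all tested genes within that cut in both pairs was not counted. The likeness in rank was therefore not tested. In pair 3, 4 of the 5 were at least 1.5-fold lower in the trained pool, as were 7.71% of all tested genes. In pair 2 none was, against 0.323% of all tested genes.

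**Figure D3:**
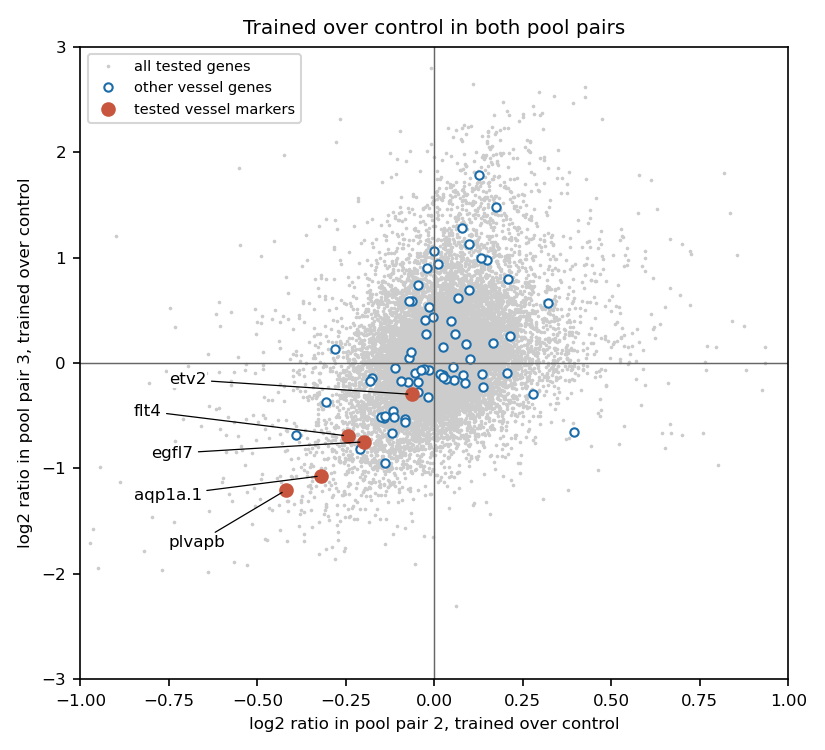
Log2 ratio of trained over control in pool pair 2 (horizontal axis) and in pool pair 3 (vertical axis) for all 15781 tested genes (grey, of which 11 lie outside the axes), the 67 other vessel genes (open) and the 5 tested vessel markers (filled, named). All 5 filled points lie below 0 on both axes, while open points lie on all sides of the origin.

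The other vessel genes did not share one direction. A list of 115 further genes of endothelium and lymphatics, in 7 groups, was set beside the 10. Of these 83 had a probe and 67 were tested, with a median log2 ratio of -0.02 in trained fins (-0.01 in pair 2 and -0.06 in pair 3). The mean was below 0 for 36 of the 67 (53.7%, against 42.8% of all tested genes). Below 0 in both pairs were 24 (35.8%, against 24.7% of all tested genes) and above 0 in both pairs 18 (26.9%, against 36.6%). None passed limma's adjusted test.

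Among the other ligands, receptors and co-receptors of the VEGF pathway the median was 0.22 over 8 genes (-0.0022 in pair 2 and 0.42 in pair 3). The ligand gene vegfaa was at 0.61 ± 0.28, with 0.10 for pair 2 and 1.13 for pair 3 (limma adjusted p = 0.752). The neuropilin genes nrp2b and nrp2a, co-receptors of VEGF, had 0.68 ± 0.31 and 0.53 ± 0.29, but their other probes reached -0.10 and -0.24. Their values were 0.08 and -0.00011 in pair 2 and 1.29 and 1.06 in pair 3. The ligand gene of flt4, vegfc, had 0.22 ± 0.18. The receptor gene flt1, which binds vegfaa, was kept by the filter and had 0.02 ± 0.17, with -0.07 for pair 2 and 0.11 for pair 3. Its log2 intensities of 6.37 to 6.48 were near those of the brightest kdrl probe (6.17 to 6.27). At that signal the offset draws a ratio towards 0. A further ligand gene, vegfd, was also dim, with log2 intensities of 6.59 to 6.82. It had -0.11 ± 0.17, with -0.05 for pair 2 and -0.18 for pair 3, and lay below 0 on all 6 arrays. The pair values of flt4 and vegfd thus lay below 0 in both pairs and those of vegfaa and vegfc above 0. Differences between these genes were not tested. In pair 2 both vegfaa and vegfc were below 0 with the trained pool in Cy5 and above 0 with it in Cy3.

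Among 12 tested genes of endothelial junctions and surfaces, 7 lay below 0 in both pairs (58.3%, against 24.7% of all tested genes), and the median was -0.10. The paralogue of plvapb, plvapa, went the other way, with 0.56 ± 0.25 (0.13 in pair 2 and 0.99 in pair 3). Its level was 9.05 in T2 and 9.23 in T3, against 8.91 in C2 and 8.23 in C3, on the log2 intensity scale. The endothelial surface lectin gene clec14a had -0.51 ± 0.21, below 0 on all 6 arrays. The caveolin gene cav1 had 0.45 ± 0.17, above 0 on all 6 arrays, with its other probe at 0.04. The endothelial cadherin gene cdh5 was not kept by the filter.

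A second aquaporin gene of vessels, aqp8a.1, lay on the same side as aqp1a.1. Its log2 ratio was -0.54 ± 0.18 (-0.39 in pair 2 and -0.68 in pair 3; limma unadjusted p = 0.0280, adjusted p = 0.752), below 0 on all 6 arrays. It was listed with the arterial and Notch genes, of which 13 were tested with a median of 0.14. Above 0 in both pairs were 7 of them (53.8%, against 36.6% of all tested genes), and below 0 in both 2 (15.4%, against 24.7%). In that list the Notch target gene hey1 had 0.50 ± 0.21 and the chemokine gene cxcl12a 0.96 ± 0.40, with other probes at 0.07 and -0.23. Their values were 0.21 and 0.13 in pair 2 and 0.80 and 1.79 in pair 3.

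Among 14 endothelial transcription factors the median was -0.05, and 6 lay below 0 in both pairs (42.9%, against 24.7% of all tested genes). The forkhead gene foxc1b had -0.55 ± 0.24, the flow-responsive gene klf2b 0.39 ± 0.21, and the ETS gene fli1, a relative of etv2, -0.31 ± 0.19 with another probe at 0.07. By pair, foxc1b had -0.14 in pair 2 and -0.95 in pair 3. Of 10 tested lymphatic genes the median was -0.03. The mean was below 0 for 6 of them (60%, against 42.8% of all tested genes), and 3 lay below 0 in both pairs (30%, against 24.7%). The gene mafba had 0.83 ± 0.33 with its other probe at 0.06, and the cadherin gene cdh6 had 0.35 ± 0.24. By pair, mafba had 0.17 in pair 2 and 1.48 in pair 3. In the same list prox1a had -0.13 ± 0.17, at low log2 intensities of 6.38 to 6.66. At least 1.5-fold lower in pair 3 were 0 of the 10, against 7.71% of all tested genes. With 10 genes, several of them as dim as prox1a, this count does not set flt4 apart from the list.

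The venous list held 3 tested genes with a median of -0.08. The venous identity factor nr2f2 had -0.39 ± 0.20, with another probe at 0.06, and the ephrin receptor genes ephb4a and ephb4b had 0.19 and -0.08. Angiopoietin, apelin and S1P genes had a median of -0.05 over 9 genes. The sphingosine phosphate receptor gene s1pr1 had -0.32 ± 0.18, the adrenomedullin receptor gene calcrla 0.44 ± 0.26, and ramp2, whose protein pairs with that receptor, -0.32 ± 0.20. None of these passed limma's adjusted test.

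**Figure D4:**
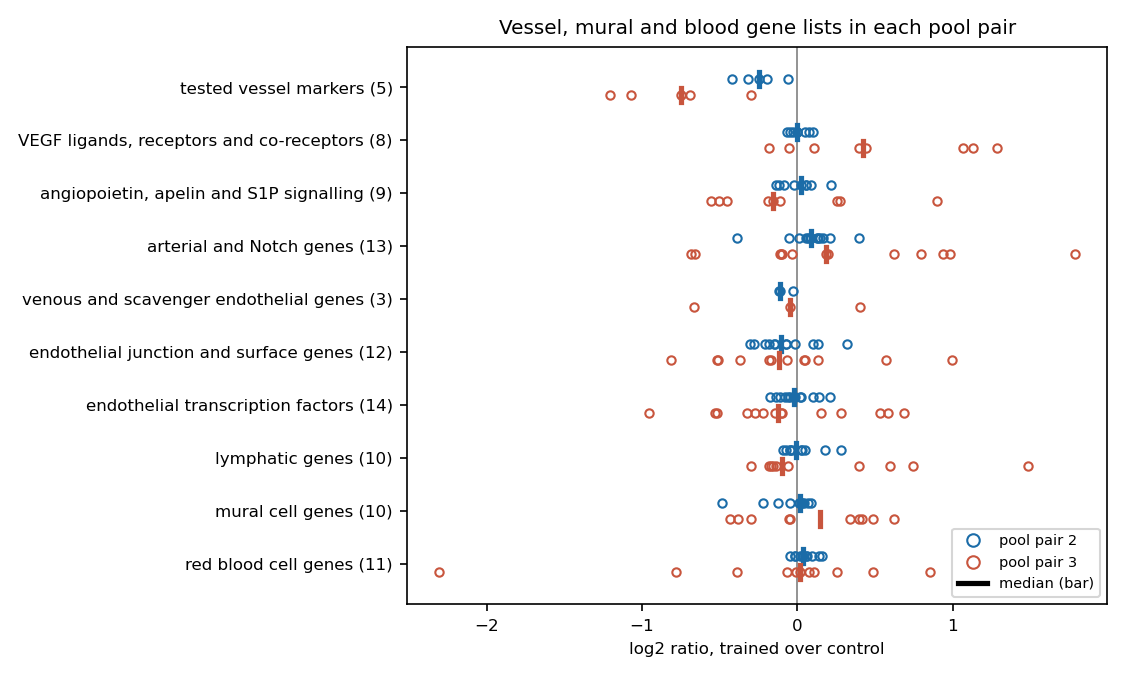
Log2 ratio of trained over control (horizontal axis) in pool pair 2 and in pool pair 3 for each tested gene (points) of the vessel, mural and red blood cell lists, with bars at the medians and the number of tested genes in brackets. The points of the 5 tested vessel markers lie below 0 in both pairs, whereas each other list has points on both sides of 0 in pair 3. In pair 2 the 3 points of the venous list also lie below 0.

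Markers of other cells that a fin pool holds are given as measured values beside these results. Mural cells, which wrap vessels, had a median of 0.07 over 10 genes, with notch3 at 0.34, tagln at -0.26 and acta2 at -0.27, and the receptor gene pdgfrb at -0.05. The median was 0.01 for 13 neutrophil and macrophage genes (spi1b 0.35, cxcr4b 0.40, nccrp1 -0.34) and 0.02 for the red blood cell genes. Epidermal genes had a median of 0.19, with 13 of 21 above 0 in both pairs (61.9%, against 36.6% of all tested genes), and fin fold genes 0.07 over 20. In these lists the keratin genes krt5, krt8 and krtt1c19e had 0.61, -0.69 and 0.44, and col1a2, and2 and and1 had 0.39, 0.51 and 0.27. Other probes of krt5, krtt1c19e, col1a2 and and2 lay on the other side of 0, at -0.43, -0.09, -0.27 and -0.50 for the lowest. The hypoxia list had a median of -0.06 over 7 genes, with igfbp1a at -0.63 and hif1al at -0.09 (another hif1al probe was at 0.16). By pair, igfbp1a had -0.07 in pair 2 and -1.19 in pair 3. The part of a shift between vessel and epidermal RNA in the values of the vessel markers was not tested.

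The genes whose log2 ratios over the 6 arrays were nearest to the mean profile of the 5 tested markers were looked for among 8677 other tested genes with a symbol. That mean profile was -0.23, -0.18, -0.34 and -0.24 in pair 2 and -0.77 and -0.84 in pair 3. The nearest were kpnb3, magoh, clec14a, mibp and eif2b2, with root mean square differences of 0.06, 0.06, 0.07, 0.07 and 0.07 log2 units. Nearest to plvapb alone were snrpd2, gtpbp4 and ppa1b, with 0.07, 0.09 and 0.10. Arrays of a pair share their RNA, so likeness rests on 2 pool pairs.

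The size of the values varied with the processing, and the direction did not in the settings run. The median of the 5 genes was -0.90 with Agilent's processed signals, -0.70 with a normexp offset of 10 and -0.28 with local backgrounds as deposited. Within slides 1 and 2 it was -0.48 and -0.51. Within a slide pair 3 has 1 dye orientation, so the dye is not balanced there.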

How the data were processed

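The members and gene lists were chosen with earlier results of these data known. Feature Extraction 10.5.1.1 of Agilent is named in the submitters' processing notes. Per the file headers, the authors' scanner files give each spot's median intensity and its local background for both dyes, with an intensity already processed by that software. They also give a log10 ratio, red over green, and the deposited value table holds the same ratio (43553 probes, column medians 0). Log2 values were computed here from the deposited intensities.

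With R 4.3.3 and limma 3.58.1, median intensities were corrected by normexp at an offset of 50, with outlying local backgrounds (over 10 median absolute deviations away) set to the array's median in 94 green and 72 red spots (this step was added with the data in view), then normalised by loess with control and outlier spots at weight 0. Each log2 ratio was set as trained over control from the dyes in the labels, then averaged per orientation, then per pool pair. Probes well above background on all arrays in the trained or the control channel were kept, and the brightest stood for a gene. RefSeq accessions named 25173 probes through the table of assembly GRCz12tu. The 2 pair values were tested against 0, two-sided, by limma with Benjamini-Hochberg adjustment. They leave 1 residual degree of freedom per gene, and limma's moderation added 4.14 prior degrees of freedom from all genes. The SE and p-values thus rest mostly on spread pooled over genes, and measure the spread between these pools only. The fit was tested on simulated data with changes of equal size in both pairs, which does not cover changes that differ between pairs, as here. Pool levels came from separate channels after Aquantile scaling. Besides the 10 markers, up to 3 genes per list with the smallest p and the genes nearest in profile are named. Outside this rule, flt1, vegfd, pdgfrb, prox1a, hbbe2, hbbe3, sptb and genes not kept were named after their values were seen. One gene that this rule names is not reported here. No sequences or coordinates were used.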

Additional observations from a re-analysis of the deposited data

How the results depend on the processing

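The number of pool pairs and arrays, and dim signals, limit precision. The 5 tested markers kept a log2 ratio below 0 in every one of 31 alternative settings run, and none of them passed limma's adjusted test across both pool pairs in any. These settings are not separate checks, as several change the test and leave the ratios as they were. The median stayed at -0.47 with Aquantile scaling, with an intensity trend and robust prior, and with the 4 pools from separate channels. With a normexp offset of 10 in place of 50 the median of the 5 markers was -0.70. It was -0.90 with processed signals and -0.90 with the deposited table, which hold nearly the same ratios and had no offset added here. The cause of these differences was not tested. Leaving out a pool pair or an array gave medians from -0.75 to -0.25. Leaving out an array gave 0 calls and 5 of 5 below 0 in both pairs, and a single pool pair allows no test. Over all genes limma called 0 on the pool pairs, with 629 at an unadjusted p under 0.05. It called 7 with an intensity trend and robust prior, 9 with the pool pair as a random replicate block over 6 arrays, 404 with the 6 arrays as independent and 3 with that random replicate block and the slide as a covariate together. Against hybridisation spread alone, a setting added after seeing the data, it called 5166 genes in pair 2 and 11158 in pair 3. Pair 3 had no technical repeat, so the count for pair 3 rests largely on the repeats of pair 2. The 4 pools from separate channels gave 0 calls with and without the pool number as a replicate block. Without scaling between arrays, 0 of 5 markers had C3 highest and T3 lowest. With pool pair 2 alone, in its mean and in the hybridisation fit, 7 of the list genes named by smallest p had the opposite sign. For these 7, the values in pair 3 alone and pair 2 alone were 1.06 and -0.00011 for nrp2a, 0.90 and -0.020 for calcrla, 0.40 and -0.027 for ephb4a, 0.74 and -0.045 for cdh6, -2.31 and 0.060 for hbae1.1, -0.78 and 0.14 for hbae3, and 0.85 and -0.048 for hmbsa. Of the genes named outside that rule, flt1, hbbe2 and sptb also had the opposite sign in the mean of pair 2.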
